A study of Mus musculus with 64 samples.

Results

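The subject is 10 genes of muscle protein breakdown in the mouse heart, out of 16913 genes counted. They were taken by name, with earlier results of these data known. The set holds the muscle ubiquitin ligases Trim63, Fbxo32, Trim54 and Trim55, and the autophagy genes Bnip3, Sqstm1, Map1lc3a, Map1lc3b, Gabarapl1 and Becn1. All 10 were in the gene table, and all passed the filter on low counts. Hearts came from C57BL/6J mice, either non-transgenic (nTG) or transgenic for cTnT-delta160E (TG), a form of cardiac troponin T used to model hypertrophic cardiomyopathy. Sedentary mice (Sed) did not exercise. Trained mice (HIIT, high-intensity interval training) ran on a treadmill 3 days a week for 6 weeks, in 31 minute sessions with 4 intervals at 85% and 4 at 50% of the average speed reached by the group in an exercise test. Of 32 male hearts, the nTG mice gave 7 sedentary and 8 trained, and the TG mice 9 sedentary and 8 trained. Of 32 female hearts, the nTG mice gave 8 sedentary and 10 trained, and the TG mice 8 sedentary and 6 trained. These numbers follow the sample labels, while the design text of the series gives each group 7 to 9, a range that the trained female groups fall outside. The labels used here do not state the age of the mice, the promoter of the transgene or the number of founder lines.

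Ubiquitin ligases mark proteins for the proteasome by attaching ubiquitin to them. Trim63 (MuRF1), Trim55 (MuRF2) and Trim54 (MuRF3) encode RING-finger ligases of the sarcomere, and Fbxo32 encodes atrogin-1, the substrate-binding F-box subunit of a cullin-based ligase. Trim63 and Fbxo32 are the classic markers of muscle atrophy and targets of FoxO transcription factors. Autophagy instead encloses cargo in a double membrane that fuses with the lysosome. Beclin-1 (Becn1) belongs to the lipid kinase complex that starts the membrane, LC3A, LC3B and GABARAPL1 (Map1lc3a, Map1lc3b, Gabarapl1) are coupled to it, p62 (Sqstm1) carries ubiquitinated cargo to it, and BNIP3 (Bnip3) is a receptor on mitochondria. The ligase genes lie on 4 chromosomes of GRCm38, Trim63 at chr4:134315120-134329629 (+), Fbxo32 at chr15:58175879-58214932 (-), Trim54 at chr5:31116712-31137630 (+) and Trim55 at chr3:19644474-19692421 (+). Of the autophagy genes, Map1lc3a lies at chr2:155276297-155278073 (+), Map1lc3b at chr8:121590361-121598760 (+), Gabarapl1 at chr6:129533160-129542346 (+) and Bnip3 at chr7:138890836-138909519 (-). Sqstm1 at chr11:50199366-50210827 (-) and Becn1 at chr11:101285952-101302286 (-) share a chromosome. All are annotated as protein-coding. A transcript level is not a measure of protein or of the flow of cargo through the pathway.

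The columns of the gene table did not follow their names, so this was settled before any comparison. With columns taken by name, 45 of 64 libraries went against the labelled sex or genotype. Each column of the separate lncRNA table was therefore given the gene column that correlated best with it, over 389 autosomal transcripts in both tables. The best correlation was 0.599 to 0.863 and the next best at most 0.404, and the 64 choices were all different. Under this match 0 of 64 libraries went against labelled sex or genotype, and Tnnt2, the gene of the transgene product, lay at 2665 to 3428 CPM (counts of a gene per megacount of the library) in nTG and 6903 to 12000 CPM in TG hearts. Sex and Tnnt2 cannot check the training label. All values below use the matched columns. With columns taken by name, 0 of all genes passed edgeR's test in each TG against nTG comparison, the members included.

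Promoter sequence is shown for 3 members whose level differed between genotypes and whose 250 bases before the RefSeq start were at hand: the ligases Trim63 and Trim54, lower in TG, and Sqstm1, higher in TG. Letters of 6 elements were searched on both strands. FoxO factors were represented by GTAAACA. The E-box that lysosomal genes share was searched as CACGTG. For the antioxidant response element the letters were TGACNNNGC. The hypoxia response element was searched as ACGTG, which lies within the lysosomal E-box. For MyoD the E-box was CAGCTG, and a MEF2 site completed the search. Capitals mark the matches. The strand shown is that of the gene, in build GRCm38.p6, at chr4:134314870-134315119 (+), chr5:31116362-31116611 (+) and chr11:50210821-50211070 (-).
Trim63: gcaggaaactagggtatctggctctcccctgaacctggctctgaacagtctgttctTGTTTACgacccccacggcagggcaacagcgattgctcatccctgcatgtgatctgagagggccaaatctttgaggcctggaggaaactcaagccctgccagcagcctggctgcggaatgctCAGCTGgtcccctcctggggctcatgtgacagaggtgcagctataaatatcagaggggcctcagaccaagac
Trim54: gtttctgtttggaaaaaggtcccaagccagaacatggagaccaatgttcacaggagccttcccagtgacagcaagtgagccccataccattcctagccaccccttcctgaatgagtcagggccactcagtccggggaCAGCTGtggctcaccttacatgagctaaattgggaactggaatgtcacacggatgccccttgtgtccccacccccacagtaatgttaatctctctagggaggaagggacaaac
Sqstm1: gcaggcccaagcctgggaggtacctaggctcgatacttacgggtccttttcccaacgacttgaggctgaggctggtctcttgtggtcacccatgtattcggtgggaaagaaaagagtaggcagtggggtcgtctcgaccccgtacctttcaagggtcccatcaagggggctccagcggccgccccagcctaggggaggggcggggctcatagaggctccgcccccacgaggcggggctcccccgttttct
Trim63 held the FoxO letters, first base at -194 from the start, which 3.17% of 32851 promoter windows of that length hold. It also held CAGCTG at -72, Trim54 held it at -113, and Map1lc3b at -250, against 13% of all windows. Bnip3 held CACGTG at -108, against 6.02% of windows, and with it ACGTG, against 16.6%. Sqstm1 and Gabarapl1 held none of these letters in the window. TGACNNNGC (10.2% of windows) and the MEF2 site (3.20%) were in none of the 6 members whose promoter was at hand. Such matches describe letters and do not show that a factor binds.

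In the 64 hearts the members were well counted. Their mean counts ran from 1784 (Becn1) to 15599 (Sqstm1) per library, where the median gene had 432, and libraries held 34.6 to 67.1 megacounts. Per kilobase of annotated exon, Map1lc3a stood highest at 222 CPM per kb on average, from 171 to 272 among hearts. Trim54 followed at 112 and Sqstm1 at 95.9 CPM per kb. Bnip3 (40.1 CPM per kb), Trim63 (37.7) and Gabarapl1 (36.2) lay close together: Bnip3 exceeded Trim63 in 46 of 64 hearts, and Trim63 exceeded Gabarapl1 in 42 of 64. Fbxo32 (29.5), Trim55 (21.6) and Map1lc3b (18.5) came next, and Becn1 was lowest at 5.21 CPM per kb. This order rests on the annotated exon lengths, 1181 bases for Map1lc3a and 7517 for Map1lc3b, and the annotation behind the counts is not given in the sources used here. Before division by length Sqstm1 had the highest mean (322 CPM), followed by Map1lc3a (263 CPM), with Map1lc3b at 139 CPM. The spread among mice of 1 group was small, with a coefficient of variation from 4.59% for Becn1 to 11.7% for Bnip3.

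**Figure D1:**
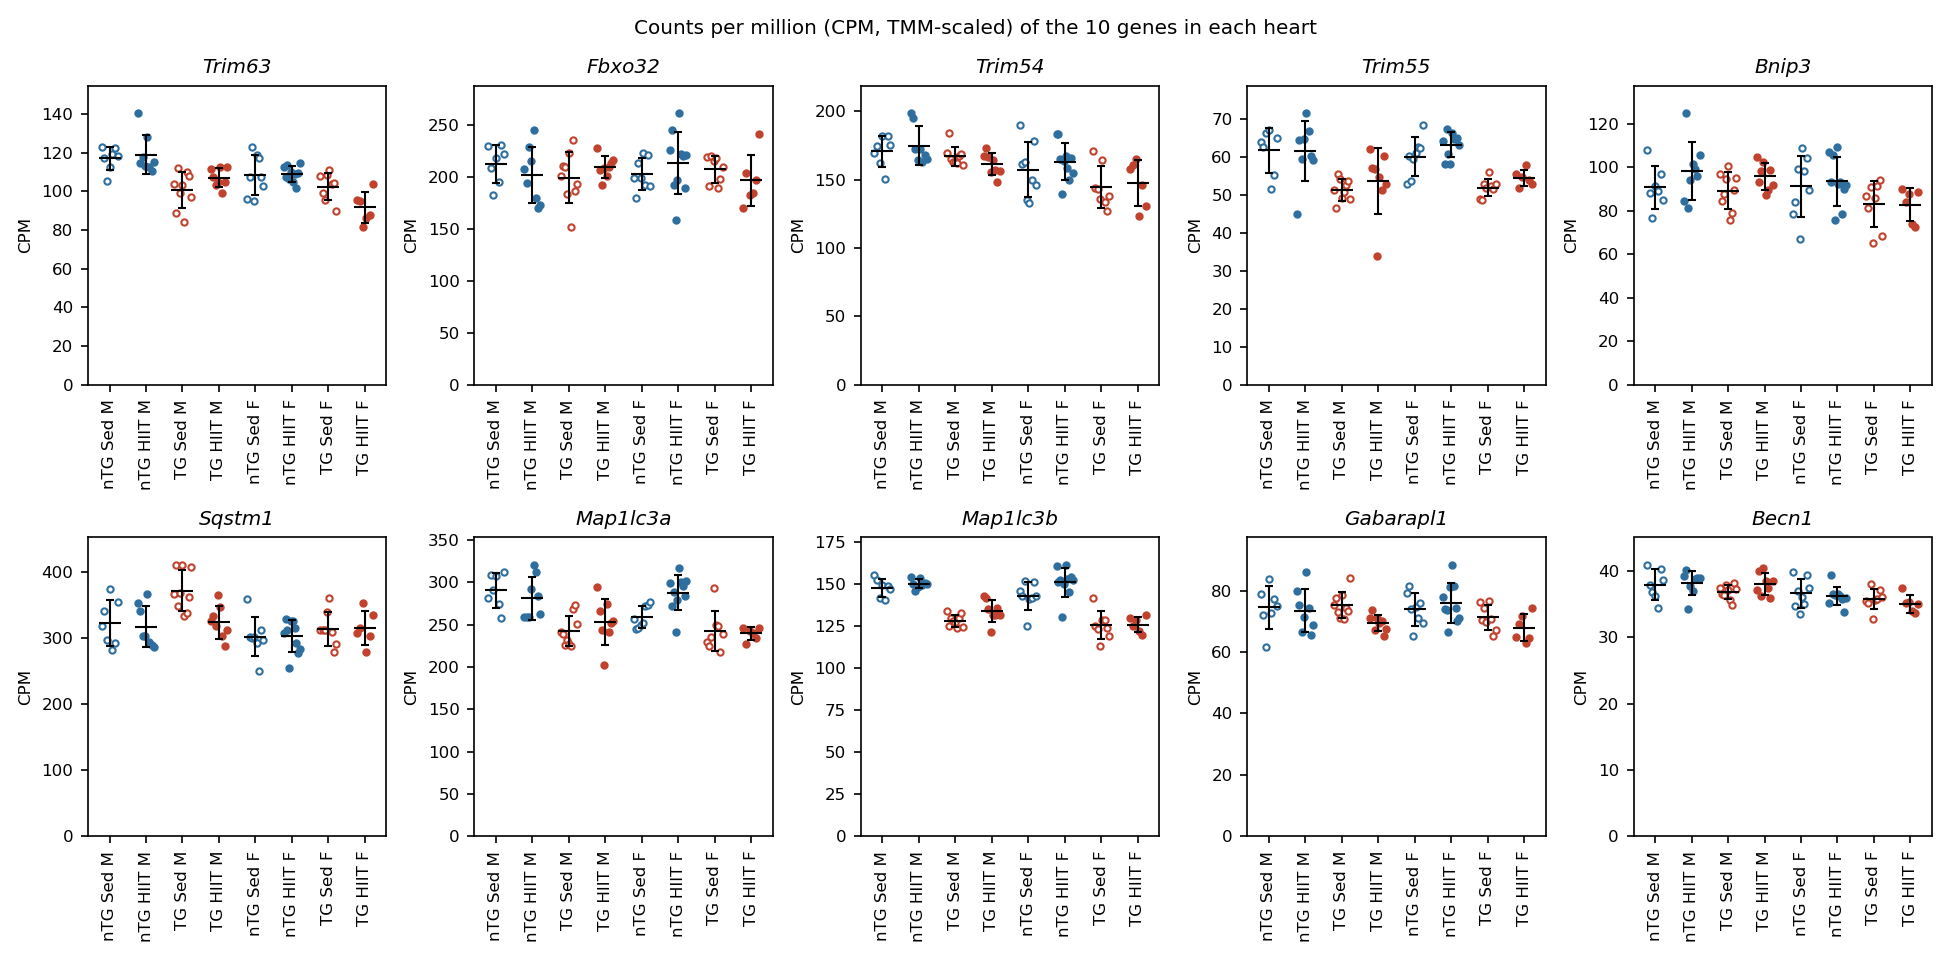
CPM (vertical axis, TMM-scaled, starting at 0) of each gene in every heart, by group (horizontal axis). Points are single hearts, blue for nTG and red for TG, open for sedentary and filled for trained, and black bars are the mean and SD. In male hearts all Map1lc3b points of TG groups lie below those of the nTG group of the same training, and Sqstm1 stands highest in sedentary TG males.

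Transgenic hearts had lower levels of several members. In the mean of the 4 TG against nTG comparisons (both sexes, sedentary and trained), 6 of 10 members were lower and 1 was higher by edgeR's quasi-likelihood test at an adjusted p under 0.05. Of all genes tested 39.0% passed in that comparison, with 20.5% lower and 18.5% higher. The change in TG was -14.2% for Trim55, -13.2% for Map1lc3b, -12.5% for Map1lc3a, -11.5% for Trim63, -6.97% for Trim54 and -4.70% for Gabarapl1, and Sqstm1 was higher by 6.25%. Fbxo32, Bnip3 and Becn1 did not pass. Gabarapl1 was close to the threshold: its call was lost with a filter at a mean of 50 counts (adjusted p = 0.0691), which left 5 members lower, and without any of 10 of the 64 hearts (up to 0.0751). The median log2 fold change of the 10 was -0.10, against 0.01 over all genes.

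Muscle ring-finger ligases. Trim63 in sedentary males ranged from 106 to 123 CPM in nTG hearts (median 118) and from 84.2 to 112 in TG hearts (median 104). In trained males it ranged from 110 to 141 CPM in nTG (median 115) and from 99.0 to 113 in TG (median 106). All 17 TG males lay below the nTG median of their training group, though the ranges overlapped. In sedentary females nTG hearts held 95.0 to 123 CPM (median 108) and TG hearts 90.1 to 111 (median 104). In trained females nTG hearts held 102 to 115 CPM (median 109) and TG hearts 81.8 to 104 (median 91.5). There 5 of 6 TG hearts lay below every nTG heart. The log2 fold change of Trim63 was -0.22 ± 0.05 (SE, adjusted p = 0.00178) in sedentary males and -0.15 ± 0.05 (adjusted p = 0.0401) in trained males. In females it was -0.08 ± 0.05 without training (adjusted p = 0.481) and -0.25 ± 0.05 with it (adjusted p = 0.000947). The call in trained males was lost when any of 7 of the 16 hearts was left out, with adjusted p up to 0.147.

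Trim55, the least abundant ligase of the 4 per kilobase, passed as lower in TG in 3 of the 4 comparisons. In sedentary males nTG hearts held 51.7 to 67.1 CPM (median 63.9) and TG hearts 46.7 to 55.6 (median 51.3). The trained males had an nTG range of 44.9 to 71.5 CPM (median 62.4) and the TG range 33.8 to 62.2 (median 55.8), each with 1 heart far below the others. In sedentary females nTG hearts held 52.9 to 68.5 CPM (median 60.7) and TG hearts 48.7 to 55.9 (median 52.1). Every TG heart lay below the nTG median of its group. In trained females the nTG range was 58.1 to 67.4 CPM (median 64.4) and the TG range 51.9 to 57.8 (median 54.4), without overlap. The log2 fold changes were -0.26 ± 0.07 in sedentary males (adjusted p = 0.00367) and -0.20 ± 0.07 in trained males (0.0448). In females they were -0.21 ± 0.07 without training (adjusted p = 0.0642) and -0.22 ± 0.07 with it (0.0321). The trained comparisons lay close to the threshold. With only the 2 groups compared fitted, the adjusted p in males was 0.221. With a filter at a mean of 50 counts, that in females was 0.0507. In males the call was lost on leaving out any of 9 of the 16 hearts, with adjusted p up to 0.176, and in females on leaving out any of 6 of 16, with adjusted p up to 0.0711. The male value of 0.176 came without TG replicate 4, the heart at 33.8 CPM, where the log2 fold change was -0.12. That heart also had the lowest cardiomyocyte marker sum of its group, 44707 CPM. Its fibroblast (1357 CPM), macrophage (207 CPM) and atrial (682 CPM) marker sums were the highest of the group. Their part in its Trim55 level was not tested.

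Trim54 and Fbxo32 passed in none of the 4 comparisons alone. Trim54 group means lay between 144 and 175 CPM. Its log2 fold change was -0.10 ± 0.03 in the mean of the 4 comparisons (adjusted p = 0.00519), with values from -0.15 in trained females to -0.03 in sedentary males. Fbxo32 had group means from 197 to 214 CPM. Its mean log2 fold change was -0.03 ± 0.04 (adjusted p = 0.566), with a 95% interval of -0.11 to 0.05. Of the 2 atrophy markers, Trim63 passed as lower in TG and Fbxo32 did not pass; the contrast between them was not tested.

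LC3 and GABARAP genes. Map1lc3b gave the smallest p of the 10 members in each TG against nTG comparison. In sedentary males nTG hearts held 141 to 156 CPM (median 149) and TG hearts 124 to 134 (median 128). In trained males nTG hearts held 146 to 154 CPM (median 150) and TG hearts 122 to 143 (median 134). In neither pair did the genotypes overlap. In sedentary females nTG hearts held 125 to 152 CPM (median 143) and TG hearts 113 to 142 (median 125). In trained females nTG hearts held 131 to 162 CPM (median 153) and TG hearts 120 to 132 (median 127). In these female groups 1 low nTG heart each accounted for most of the overlap, at 125 and 131 CPM, and all 14 TG hearts lay below the nTG median. The log2 fold changes were -0.20 ± 0.04 in sedentary males (adjusted p = 2.95e-05) and -0.17 ± 0.04 in trained males (0.000873). In females they were -0.19 ± 0.04 without training (adjusted p = 0.000446) and -0.26 ± 0.04 with it (1.12e-06). In sedentary females the adjusted p was 0.0512 when only those 2 groups were fitted.

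Map1lc3a, the most abundant member per kilobase, was lower in TG in 2 of the 4 comparisons. In sedentary males nTG hearts held 258 to 312 CPM (median 291) and TG hearts 225 to 273 (median 239), and 7 of 9 TG hearts lay below every nTG heart. In trained females nTG hearts held 241 to 317 CPM (median 292) and TG hearts 228 to 246 (median 241), and 9 of 10 nTG hearts lay above every TG heart. These were log2 fold changes of -0.26 ± 0.06 (adjusted p = 0.000475) and -0.26 ± 0.06 (0.00104). In trained males nTG hearts held 259 to 321 CPM (median 273) and TG hearts 202 to 295 (median 253), and in sedentary females nTG hearts held 245 to 277 (median 255) and TG hearts 218 to 294 (median 237). The genotypes overlapped there, with log2 fold changes of -0.15 ± 0.06 (adjusted p = 0.0612) and -0.10 ± 0.06 (0.412). Gabarapl1 had group means from 67.9 to 75.9 CPM. Of the 4 comparisons it passed in trained females, at -0.16 ± 0.05 (adjusted p = 0.0364), where nTG hearts held 66.5 to 88.4 CPM (median 74.1) and TG hearts 63.1 to 74.2 (median 67.0). That call was lost without any of 7 of the 16 hearts. It was also lost with only those 2 groups fitted (adjusted p = 0.0779) and with a filter at a mean of 50 counts (0.0655). The mean over the 4 comparisons (-0.07 ± 0.03, adjusted p = 0.0302) was lost without any of 10 of the 64.

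Cargo receptors and Becn1. Sqstm1 was the only member to pass as higher in TG, and of the 4 comparisons it passed in sedentary males. There nTG hearts held 282 to 375 CPM (median 319) and TG hearts 334 to 411 (median 367). All 9 TG hearts lay above the nTG median and 3 above every nTG heart. The log2 fold change was 0.20 ± 0.06 (adjusted p = 0.0153). In the other 3 comparisons it was 0.03 to 0.06 and did not pass, with TG against nTG medians of 322 and 304 CPM in trained males. In females these medians were 312 and 302 CPM without training, and 312 and 310 with it. Bnip3 had group means from 82.8 to 98.3 CPM, with a mean log2 fold change of -0.09 ± 0.04 (adjusted p = 0.0668). Becn1 had group means from 35.1 to 38.1 CPM and a mean log2 fold change of -0.03 ± 0.02 (adjusted p = 0.151).

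**Figure D2:**
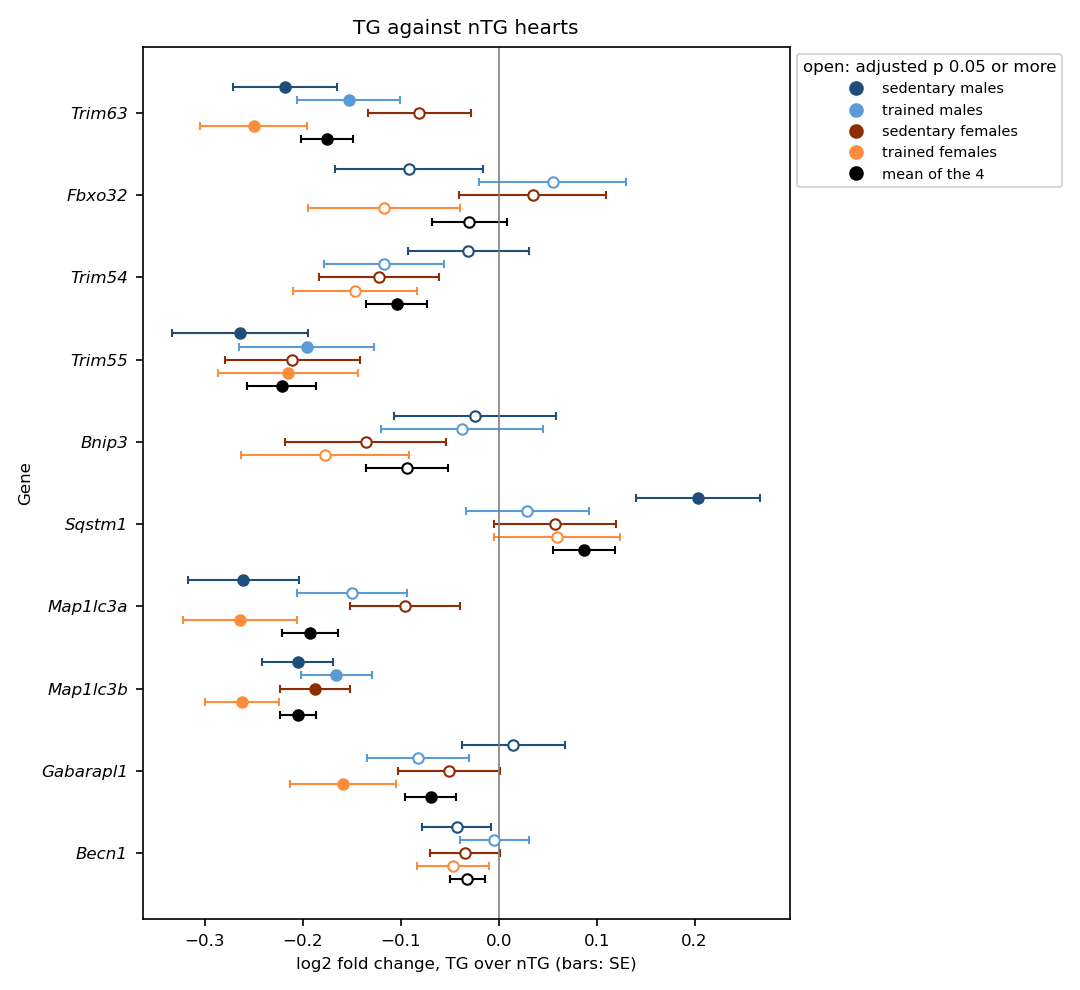
Log2 fold change of each gene (rows) in TG over nTG hearts (horizontal axis), in sedentary and trained males and females and as the mean of the 4. Bars are 1 SE, and filled points passed an adjusted p of 0.05. Map1lc3b is filled in all 5, Trim63 and Trim55 in 4, and Sqstm1 lies to the right of zero.

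By group, 5 of 10 members passed in sedentary males, 4 lower and 1 higher, where 20.6% of all genes did (11.2% lower and 9.39% higher). In trained males 3 passed, all lower (14.0% of all genes, 8.31% lower and 5.65% higher). Among females 1 passed in sedentary mice, lower (4.37% of all genes, 2.78% lower and 1.58% higher), and 5 in trained mice, all lower (14.8% of all genes, 9.43% lower and 5.37% higher). The member medians were -0.07, -0.10, -0.09 and -0.17 on the log2 scale, and those of all genes lay between -0.01 and 0.01. With 1 heart of trained males left out the count there ran from 1 to 4. It was 1 without TG replicate 4, nTG replicate 5 or TG replicate 6. In trained females it ran from 3 to 5, and it was 3 without nTG replicate 6 or TG replicate 5. In sedentary females it was 2 without nTG replicate 1 or 3. How many of all genes passed in these fits is not given here. The size of the genotype effect was not found to differ between sexes or by training for any member. By edgeR 0 members passed in each of the 4 such interactions (0 of all genes, with 910 to 2503 genes at an unadjusted p under 0.05), and DESeq2 also called 0 members and 0 or 1 genes. From 0 to 2 members had an unadjusted p under 0.05. The smallest was that of Trim63, whose genotype effect was more negative in trained than in sedentary females by -0.17 ± 0.08 (p = 0.0293, adjusted p = 0.751). The 95% interval of that difference was -0.32 to -0.02.

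Cell type markers also differed between genotypes. In the mean of the 4 comparisons 4 of 5 cardiomyocyte markers were lower in TG (Myh6, Actc1, Tnni3 and Myl2, by 0.08 to 0.20 on the log2 scale, with Ryr2 at -0.04), and all 5 fibroblast and all 5 macrophage markers were higher. In sedentary males the cardiomyocyte sum was 54347 to 64582 CPM in nTG and 48234 to 57452 in TG, the fibroblast sum 566 to 791 against 643 to 1091, and the macrophage sum 97.8 to 132 against 132 to 203. In trained females these sums were 56768 to 64991 against 51241 to 58441, 572 to 736 against 743 to 996, and 98.7 to 141 against 128 to 182 CPM. In trained males they were 54483 to 65209 against 44707 to 59516, 514 to 709 against 639 to 1357, and 91.3 to 120 against 129 to 207 CPM. In sedentary females they were 53283 to 63095 against 51037 to 57858, 595 to 1070 against 733 to 968, and 118 to 168 against 130 to 184 CPM, and none of these 15 genes passed there. Blood genes were lower in TG for 3 of 5, with sums from 260 to 4603 CPM among hearts, the highest in 1 sedentary TG male. Of 4 endothelial genes 1 was lower, of 4 atrial genes 1 was higher, and 0 of 3 smooth muscle and 0 of 2 adipocyte genes passed. Mybpc2 was the only one of 6 skeletal muscle genes in the table and was higher in TG (0.99 ± 0.08). Cidec was at 0 counts in 2 hearts, Myl7 in 1 and Sln in 5, and all other markers were counted in every heart. As a check of the labelled tissue, Myh6, the main myosin of the adult mouse heart, had at least 1353312 counts in each library. The part of these shifts in the members' differences was not tested, and in bulk tissue fewer cells of a type and less RNA per cell cannot be told apart.

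Training was compared within each genotype and sex. In TG males, Sqstm1 fell with training. Sedentary hearts held 334 to 411 CPM (median 367) and trained hearts 288 to 366 (median 322). All 8 trained hearts lay below the sedentary median, and 6 lay below every sedentary heart. The log2 fold change was -0.20 ± 0.06 (adjusted p = 0.0181), and without trained replicate 7 the adjusted p was 0.0577. It was the only member of 10 to pass there, in a comparison where 18.0% of all genes did (3036 genes, 1750 of them higher). The sedentary TG males serve both in this comparison and in that with sedentary nTG males, so the 2 Sqstm1 differences are not independent. Markers of other cells moved in the same comparison. All 5 blood markers were lower in trained TG males (median log2 fold change -1.45), with summed levels of 290 to 4603 CPM (median 547) in sedentary and 260 to 554 CPM (median 384) in trained hearts. The 4603 CPM was that of sedentary replicate 5, and the next highest sedentary sum was 1150 CPM. The change without that heart was not computed. Of the endothelial markers 2 of 4 were lower (sums of 889 to 1006 against 773 to 946 CPM), of the macrophage markers 2 of 5 (132 to 203 against 129 to 207 CPM) and of the fibroblast markers 1 of 5 (643 to 1091 against 639 to 1357 CPM). Of the cardiomyocyte markers 1 of 5, Ryr2, was higher, with sums of 48234 to 57452 CPM in sedentary and 44707 to 59516 CPM in trained hearts. Their part in the Sqstm1 result was not tested. Gabarapl1 had all 8 trained TG males below the sedentary median, 65.4 to 73.6 CPM (median 69.9) against 70.7 to 84.1 (median 74.3), with a log2 fold change of -0.12 ± 0.05 and an adjusted p of 0.0953. With only these 2 groups fitted its adjusted p was 0.0290, and 2 members passed among 2804 genes in all. The genotype by training term of Sqstm1 in males was -0.17 ± 0.09 (p = 0.0547, adjusted p = 0.350), with an interval from -0.35 to 0.00366.

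**Figure D3:**
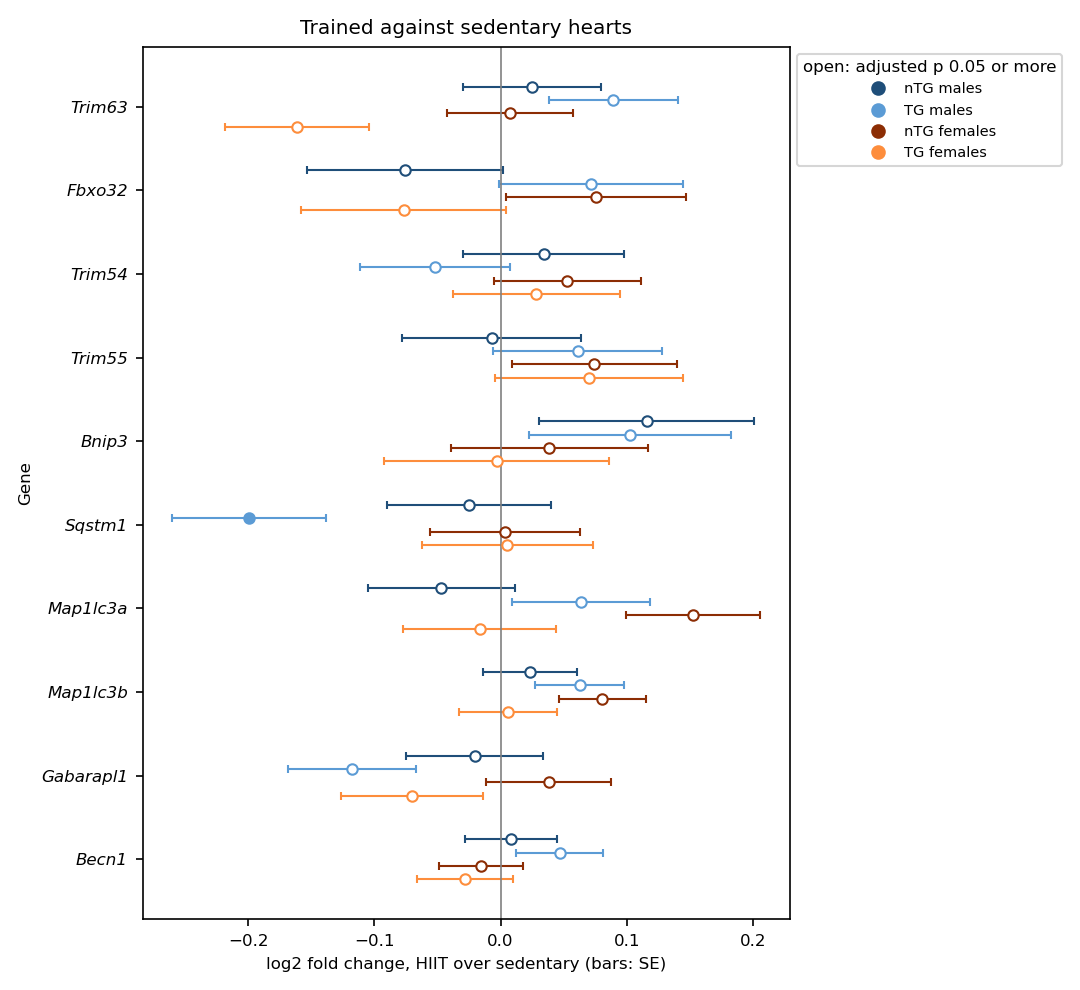
Log2 fold change of each gene (rows) in trained over sedentary hearts (horizontal axis) for both genotypes and sexes. Bars are 1 SE, and filled points passed an adjusted p of 0.05. Only Sqstm1 in TG males is filled, at -0.20.

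In the other 3 training comparisons no member passed by edgeR or by DESeq2. In nTG males 0 of 10 had an unadjusted p under 0.05, and 0% of all genes passed (999 at an unadjusted p under 0.05, and 4 by DESeq2). In nTG females 2 of 10 had one, and 0.148% of all genes passed (25, with 2406 at an unadjusted p under 0.05, and 95 by DESeq2). These 2 were Map1lc3a, with 245 to 277 CPM in sedentary hearts (median 255) and 241 to 317 in trained hearts (median 292), and Map1lc3b, with 125 to 152 (median 143) and 131 to 162 (median 153). For Map1lc3a 8 of 10 trained hearts lay above every sedentary heart, and the log2 fold change was 0.15 ± 0.05 (p = 0.00573, adjusted p = 0.184). For Map1lc3b it was 0.08 ± 0.03 (p = 0.0218, adjusted p = 0.265). In TG females 1 of 10 had an unadjusted p under 0.05, and 0% of all genes passed (606 at an unadjusted p under 0.05, and 0 by DESeq2). That was Trim63, with 90.1 to 111 CPM in sedentary hearts (median 104) and 81.8 to 104 in trained hearts (median 91.5), a log2 fold change of -0.16 ± 0.06 (p = 0.0063, adjusted p = 1.0).

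The training effect was also compared between the sexes. In TG hearts Trim63 had a log2 fold change with training of 0.09 ± 0.05 in males and -0.16 ± 0.06 in females. The difference, female minus male, was -0.25 ± 0.08 (p = 0.00174, adjusted p = 0.102), with an interval from -0.40 to -0.10. It did not pass over all genes. Sqstm1 differed the other way, by 0.20 ± 0.09 (p = 0.0282, adjusted p = 0.219). Without trained TG female replicate 6, 1 member passed in this comparison. How many of all genes passed in that fit is not given here, so the count has no share beside it. In nTG hearts Map1lc3a gave a difference of 0.20 ± 0.08 (p = 0.0139, adjusted p = 0.742). By edgeR 0 genes passed in either (1077 in nTG and 3063 in TG at an unadjusted p under 0.05), and DESeq2 called 1 and 166, with 0 members. Between sedentary nTG females and males 0 members passed by either tool, and 2.22% of all genes passed by edgeR. At an unadjusted p under 0.05 there were 2 of 10 members and 2571 of 16913 genes. Map1lc3a had the smallest p, with 245 to 277 CPM in females and 258 to 312 in males, a log2 fold change of -0.17 ± 0.06 (p = 0.00565, adjusted p = 0.117).

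Other genes of the same pathways were counted from lists, in the mean of the 4 TG against nTG comparisons, where 20.5% of all genes were lower and 18.5% higher. All lists were written with earlier results of these data known, so these counts, and those with training below, are descriptions and not tests. Among cargo and mitochondrial receptors beside the members, 10 of 14 were lower and 0 higher, with a list median of -0.09 on the log2 scale. They included Calcoco1, a receptor for endoplasmic reticulum turnover, at -0.29 ± 0.02, Pink1, the kinase that flags damaged mitochondria, at -0.29 ± 0.03, and Tollip, an endosomal ubiquitin-binding adaptor, at -0.17 ± 0.02. Of 17 genes of membrane elongation and LC3 conjugation, 8 were lower and 0 higher (median -0.07), among them Atg9a, the lipid scramblase of the growing membrane, at -0.20 ± 0.03, Wipi1 at -0.16 ± 0.02 and Wipi2 at -0.10 ± 0.02, both phosphoinositide binders. Of 14 initiation and nucleation genes 4 were lower and 3 higher (median -0.04). Atg13 (-0.22 ± 0.03) and Ulk1 (-0.10 ± 0.03) of the initiating kinase complex and Pik3r4 (-0.08 ± 0.02) of the Beclin-1 complex were lower. Uvrag (0.11 ± 0.02) and Rubcn (0.10 ± 0.02), which bind that complex, and Bcl2 (0.19 ± 0.05), which binds Beclin-1, were higher. The shifts of cardiomyocyte (median -0.11 on the log2 scale), fibroblast (0.40) and macrophage markers (0.41) belong to the same comparison, and their part in the counts of these lists and of those that follow was not tested.

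Lysosomal genes went both ways, with 6 of 16 higher and 4 lower (median 0.02). Lamp2 (0.21 ± 0.03), a lysosomal membrane protein, Tfe3 (0.13 ± 0.03), a transcription factor of lysosomal genes, and Atp6v1h (0.14 ± 0.03), a proton pump subunit, were higher. Mitf (-0.16 ± 0.02), of the Tfe3 family, the protease gene Ctsd (-0.16 ± 0.02) and the cholesterol exporter Npc1 (-0.09 ± 0.03) were lower. Of 6 genes of chaperone-assisted autophagy, in which Bag3 hands damaged filamin to the autophagosome, 4 were lower and 0 higher (median -0.11): Bag3 at -0.15 ± 0.03, Hspa8 at -0.17 ± 0.04 and Synpo2 at -0.12 ± 0.03 were among them.

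On the proteasome side, 5 of 16 other muscle ubiquitin ligases were lower and 1 higher (median -0.03). Asb2 (-0.31 ± 0.03), whose ligase targets filamin, Fbxl22 (-0.21 ± 0.05), an F-box protein of the sarcomere, and the chaperone-linked ligase Stub1 (-0.09 ± 0.02) were lower, and Znrf2 (0.06 ± 0.02) was higher. Of 32 proteasome subunits 10 were lower and 1 higher (median -0.03). The activator Psme4 was at -0.21 ± 0.03, Psmb6 at -0.14 ± 0.02, Psmd8 at -0.09 ± 0.02 and the catalytic subunit Psmb5 at 0.07 ± 0.02. Of 13 FoxO factors and further FoxO or glucocorticoid targets 3 were lower and 0 higher (median 0.00 to 2 decimals): Foxo4 (-0.12 ± 0.03), Ddit4 (-0.35 ± 0.09), an inhibitor of mTORC1, and Klf15 (-0.17 ± 0.06). Of 9 hypoxia-related genes beside Bnip3, Hif1a was higher (0.10 ± 0.03), and Epas1 (-0.14 ± 0.02), Pdk1 (-0.08 ± 0.02) and Egln1 (-0.10 ± 0.04) were lower (median -0.02).

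**Figure D4:**
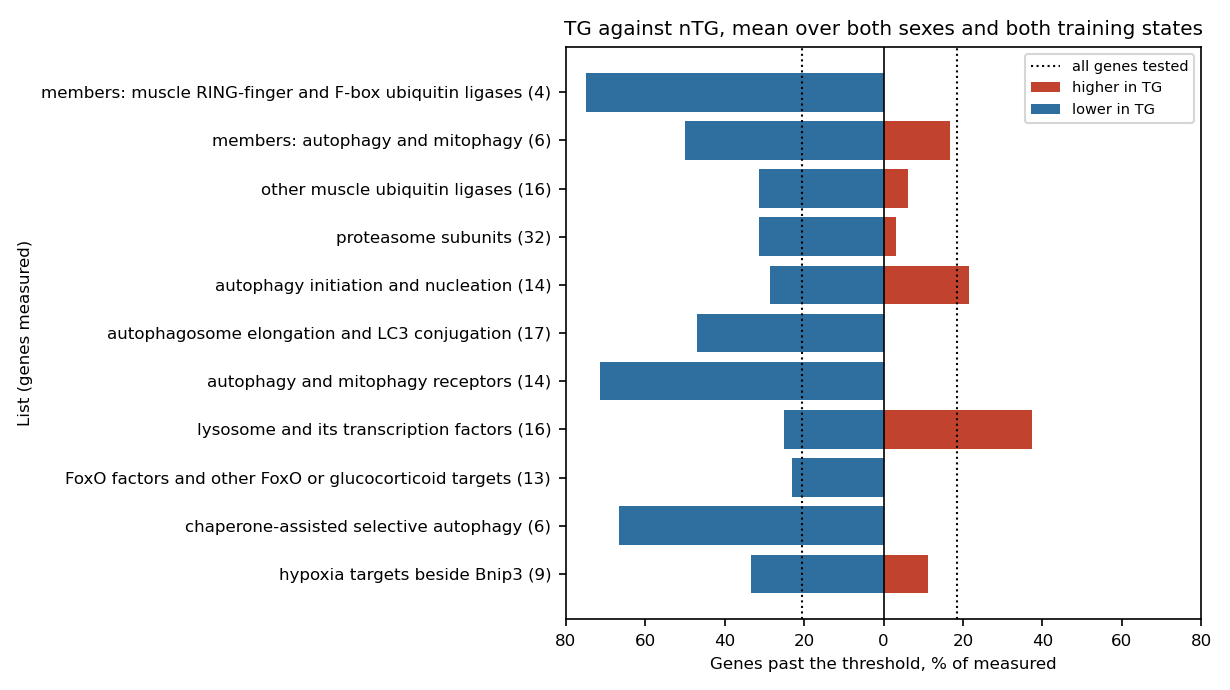
Share of each list's measured genes (horizontal axis, % of measured) that passed as higher (red, right) or lower (blue, left) in TG, in the mean of the 4 comparisons. Dotted lines are the shares over all genes, 18.5% higher and 20.5% lower. The lists were written with earlier results of these data known. Receptors (10 of 14 lower) and chaperone-assisted autophagy (4 of 6) reach furthest left among the lists beside the members, and lysosomal genes (6 of 16 higher) furthest right.

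With training in TG males, where 10.3% of all genes were higher and 7.60% lower, proteasome subunits were the list with most calls. Of 32 subunits 12 were higher and 1 lower (median 0.08), with Psma1 at 0.25 ± 0.06, Psmd6 at 0.21 ± 0.05, Psme4 at 0.27 ± 0.07 and, lower, Psmd3 at -0.11 ± 0.04. Elongation genes had 3 of 17 higher and 0 lower (Atg4a 0.30 ± 0.08, Atg3 0.19 ± 0.06, Atg12 0.11 ± 0.04), and receptors 3 of 14 higher (Tax1bp1, Fundc1, Nbr1) and 2 lower (Tex264, Fkbp8). Initiation genes had 2 of 14 higher (Rb1cc1, Pik3c3) and 1 lower (Ambra1), lysosomal genes 2 of 16 higher (Lamp2 at 0.17 ± 0.05, Mitf at 0.15 ± 0.04) and 1 lower (Tfe3 at -0.26 ± 0.06). Chaperone-assisted autophagy had 2 of 6 lower, Bag3 at -0.21 ± 0.06 and Hspb8 at -0.20 ± 0.07. Among other ligases Wwp1 was higher and Trim72 lower of 16, Sesn1 was higher of 13 FoxO-related genes, and Pdk1 was higher of 9 hypoxia-related genes. The lower blood, endothelial, macrophage and fibroblast markers and the higher Ryr2 given above for Sqstm1 belong to the same hearts, and their part in these list counts was not tested. The TG males of this comparison also enter those of TG against nTG.

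Among hearts of the same group, some members varied together. Correlations of log2 CPM were taken over the 64 hearts after each group's mean was removed, and tested by permuting hearts within groups (two-sided, adjusted over 45 pairs). Of 45 pairs 16 passed, all with a positive r. Sqstm1 and Gabarapl1 were the closest (r = 0.683, rho = 0.716, permutation p = 1e-05 for both, the smallest the permutations can give, adjusted 0.00015), and r was 0.683 in both sexes, 0.660 in nTG and 0.750 in TG. Trim55 and Map1lc3a followed (r = 0.618, rho = 0.586, permutation p = 1e-05 for both, adjusted 0.00015), at 0.695 in males and 0.471 in females. Trim54 went with Map1lc3b (r = 0.574, rho = 0.566, permutation p = 2e-05 for both, adjusted 0.00018 and 0.00022) and with Sqstm1 (r = 0.557, rho = 0.561, permutation p = 2e-05 and 1e-05, adjusted 0.00018 and 0.00015). Bnip3 went with Map1lc3b (r = 0.551, rho = 0.454, permutation p = 1e-05 and 0.0003, adjusted 0.00015 and 0.00225), more in females (0.689) than in males (0.271), a difference that was not tested. Trim63 and Fbxo32, the 2 atrophy markers, had r = 0.398 (rho = 0.358, permutation p = 0.00197 and 0.00584, adjusted 0.00739 and 0.0239), whereas Trim63 and Trim55 had r = -0.0666 (rho = 0.00453, permutation p = 0.581 and 0.973, adjusted 0.670 and 0.973). Without the 2 hearts farthest from the median of the first gene, these r were 0.688, 0.531, 0.536, 0.543, 0.512, 0.331 and 0.0648, the last with a changed sign. All points share library, depth and tissue composition within a heart.

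**Figure D5:**
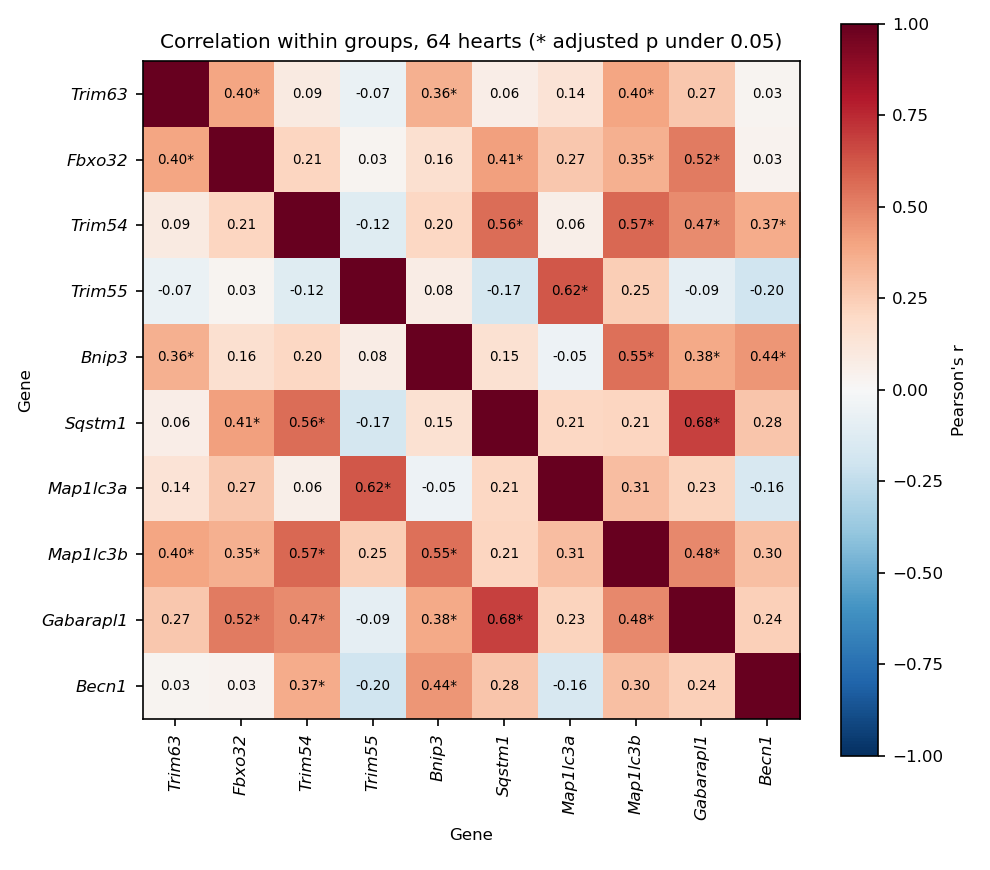
Pearson's r between each pair of genes (rows and columns) over 64 hearts after the mean of each group was removed, from -1 (blue) to 1 (red). Stars mark adjusted permutation p under 0.05, which 16 of 45 pairs reached, and Sqstm1 with Gabarapl1 is the highest at 0.68.

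The genes most like each member were sought over all 64 hearts with the group differences kept, among 12172 genes with a mean of at least 50 counts, as a description without a test. Map1lc3b was closest to Acad11 (r = 0.915) and Ivd (0.899), genes of acyl-CoA dehydrogenases. Map1lc3a was closest to Sdhc (0.888), a subunit of succinate dehydrogenase, and Fitm1 (0.887), a lipid droplet protein. Trim55 was closest to D2hgdh (0.793) and Fitm1 (0.786), and Trim63 to Adra1a (0.702), an adrenergic receptor, and Pdhb (0.701), a pyruvate dehydrogenase subunit. Trim54 was closest to the deubiquitinase gene Usp4 (0.803) and Nploc4 (0.785). Fbxo32 was closest to Pik3ip1 (0.792), an inhibitor of PI3 kinase, and Hbp1 (0.695). Sqstm1 was closest to Srxn1 (0.734) and Gclm (0.702), genes of the oxidative stress response. Bnip3 was closest to Cp (0.701) and Cast (0.680), Gabarapl1 to Mtmr14 (0.619) and Itm2b (0.611), and Becn1 to Dhx32 (0.614) and Guk1 (0.601). The points share depth, tissue composition and group means.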

How the data were processed

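Total RNA from heart was depleted of ribosomal RNA and sequenced in bulk, per the labels' protocols. The authors deposited counts per gene (Ensembl identifiers) and expected counts (estimated counts, partly fractional) for lncRNA transcripts. The submitters' processing notes name cutadapt 2.3, FastQC 0.11.8, MultiQC 1.7, STAR 2.7.8a and RSEM 1.3.3, with builds GRCm38 and mm10. The annotation and strand setting of the counting are not given in the sources used here, so reads of overlapping genes may be split. All 64 columns of both tables were used, no 2 libraries were identical, and lncRNA values served only to match columns (log2 CPM with 0.5 added, minimum mean of 20 counts, centred per transcript). GENCODE M21 gave symbols for 16879 of 16913 genes, positions and exon lengths. Promoters are RefSeq's (GRCm38.p6), with 6 of 10 members found.

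Counts were tested with edgeR 4.0.16 (R 4.3.3): quasi-likelihood F test, TMM scaling, 1 model with 8 group means over 64 libraries, Benjamini-Hochberg adjustment over all genes, threshold 0.05. filterByExpr kept all 16913 genes. Adjusted p-values in the text come from this test, SE is the log2 fold change divided by the square root of F, and intervals are 95%. CPM use TMM-scaled totals, and marker sums add CPM. Permutations used 100000 resamples on log2 CPM with a prior count of 2. Replicates are hearts the labels number as biological replicates. The scripts were tested on simulated data. Alternatives were DESeq2 1.42.0, median-of-ratios scaling, other filters, fits of only the groups compared, other column matches, columns by name, a replicate block and leaving out single libraries.

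The members and all lists were chosen with earlier results of these data known. The genes named beside the members are, per pathway list, up to 3 higher and 3 lower with the smallest p in the mean of the 4 genotype comparisons or in training of TG males, and the 2 genes most correlated with each member. Marker lists covered cardiomyocytes, fibroblasts, endothelium, macrophages, smooth muscle, blood, skeletal muscle, adipocytes and atrium. The results of 1 pathway list are not reported here.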

Additional observations from a re-analysis of the deposited data

Results flagged for a closer look

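In 80 series of 1 member in 1 group, 7 had a heart set apart from the others of its group by Dixon's test, where chance would give about 4. Trim54 was 184 CPM in sedentary TG male replicate 2, with the others at 161 to 170. Trim55 was 44.9 CPM in trained nTG male replicate 1 (others 59.3 to 71.5) and 33.8 CPM in trained TG male replicate 4 (others 51.3 to 62.2). Map1lc3a was 294 CPM in sedentary TG female replicate 4 (others 218 to 250). Map1lc3b was 125 CPM in sedentary nTG female replicate 4 (others 141 to 152) and 131 CPM in trained nTG female replicate 4 (others 145 to 162). Becn1 was 39.4 CPM in trained nTG female replicate 2 (others 33.9 to 36.5).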

How the results depend on the processing

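Columns taken by name changed the results most. Then 0 members passed in each of the 5 genotype comparisons and in training of TG males, as did 0 of all genes. In training of nTG males 1 member passed, among 132 genes. With them 11 called log2 fold changes reversed: Trim63 to 0.0156 in sedentary males, 0.0428 in trained males, 0.105 in trained females and 0.0293 in the mean of the 4; Trim55 to 0.169 in trained males; Map1lc3b to 0.0393 in trained males and 0.0122 in trained females; Gabarapl1 to 0.0626 in trained females and 0.0123 in the mean; Trim54 to 0.0371 in the mean; and Sqstm1 to 0.0031 with training of TG males. A stricter filter, at a mean of 50 counts, left 3 members in trained females (2262 of all genes, against 2503), since Trim55 and Gabarapl1 had adjusted p of 0.0507 and 0.0655, and Gabarapl1 lost its call in the mean of the 4 (0.0691). Fitting only the groups compared gave 2 members in training of TG males (2804 of all genes, against 3036). It lost Trim55 in trained males (0.221), Map1lc3b in sedentary females (0.0512) and Gabarapl1 in trained females (0.0779), and it gives no value for the mean over all 8 groups. The cause of these changes was not tested. Leaving out 1 library gave 1 to 4 members for TG against nTG in trained males, 1 to 2 in sedentary females, 3 to 5 in trained females, 0 to 1 for training of TG males and 0 to 1 for training by sex in TG. The other counts stayed within 1.5 times their value. How many of all genes passed with 1 library left out is not given here.

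DESeq2 and median-of-ratios scaling kept the direction and call of all 22 named changes. No filter and other minima of the column match could not change them. The filter had removed no gene, and the other minima gave the same pairs of columns, so these settings repeat the main fit. The 16 counts were equal under these settings except that DESeq2 called 4 members, not 3, for TG against nTG in trained males (2567 of all genes, against 2361). Of 45 pairs, 15 passed by Spearman's rho and 14 without the 2 farthest hearts. Replicate numbers gave little sign of pairing hearts of different groups. The median correlation of 205 same-number pairs was 0.01 (24 over 0.1), against -0.0004 for 1582 other-number pairs (148 over 0.1). With the replicate block Trim55 lost its call for TG against nTG in trained males (adjusted p = 0.0593). There 2 members passed instead of 3 (2393 of all genes, against 2361). Trim55 also lost its call in trained females (0.0828), where Trim54 passed in its place and the count stayed at 5 (1973 of all genes, against 2503). The 14 other counts were equal.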

Other observations

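Among the 31 TG hearts, levels of the members were set against Tnnt2, a relation chosen after seeing the data, with group means removed. For 10 relations none passed adjustment. Trim55 had r = 0.480 (rho = 0.394, permutation p = 0.0149 and 0.031, adjusted 0.095 for r), and Sqstm1 r = -0.442 (rho = -0.467, permutation p = 0.019 and 0.0122, adjusted 0.095 for r). Without the 2 hearts farthest from the median Tnnt2 these were 0.211 and -0.289, so the size of both depends on those hearts.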
